A study of Mus musculus with 69 samples.

Results

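The neurotrophins and the neuregulins are 2 families of secreted signals that act through receptor tyrosine kinases, and 8 genes of these systems were followed here in the mouse nucleus accumbens: the neurotrophins Bdnf and Ntf3, their receptors Ntrk2 and Ntrk3, the sorting receptor Sort1, the neuregulins Nrg1 and Nrg3, and the neuregulin receptor Erbb4. The members were taken by symbol from a count table of 52636 genes and by gene name from 2 lists of peaks of H3K79me2, dimethylation of histone H3 at lysine 79. The series concerns early life stress (ELS), this histone mark and the enzyme that writes it, DOT1L, in medium spiny neurons, the projection neurons of the accumbens. RNA was sequenced from whole tissue of male mice in 4 groups of 8 libraries. Standard GFP and ELS GFP are standard-reared and ELS-reared mice with a GFP control, Standard Dot1l overexpression is standard-reared mice labelled for Dot1l overexpression, and ELS Dot1l knockdown is ELS-reared mice labelled for Dot1l knockdown. The sources used here give neither the strain, the ages nor the cells that carry the vectors.

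In the brain, pro-neurotrophins are cleaved to mature ligands that bind Trk receptors, with BDNF binding TrkB, the product of Ntrk2, and neurotrophin-3 binding TrkC, the product of Ntrk3. Much of the BDNF in the striatum and accumbens is carried there by axons from other brain regions, so the local Bdnf transcript is known to be scarce. Neuregulins signal through ErbB receptors, and ErbB4 is known for its role in inhibitory neurons. H3K79me2 lies over the bodies of transcribed genes, mostly near their starts.

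Of the 52636 genes, 14016 passed the filter on low counts, among them all 8 members. Libraries held 0.314 to 11.1 M counts (M, mega), and 4 held under 1 M: Standard GFP replicates 1, 4 and 5 and ELS Dot1l knockdown replicate 7. Levels are given in CPM, counts per 1 M counts after scaling with trimmed mean of M-values (TMM) factors. These factors ran from 0.53 in Standard Dot1l overexpression replicate 1 and 0.57 in Standard GFP replicate 6 to 1.55. Nothing in the labels says that the libraries of a group come from separate animals, so p-values measure the spread between these libraries. Medium spiny neuron markers were present, with Pde10a between 194 and 1020 CPM and Drd2 between 10.5 and 630 CPM over the 32 libraries, and Drd1 was at 0 in 1 of them. Gfap of astrocytes and P2ry12 of microglia, which define those cells, were listed at 0 in all 32.

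Dot1l, the gene both vectors were aimed at, was not shown to differ between groups. It averaged 33.9 ± 10.8 CPM in Standard GFP, 35.6 ± 11.4 in ELS GFP, 43.1 ± 19 in Standard Dot1l overexpression and 43.1 ± 15.2 in the libraries labelled knockdown (SD, n = 8 each). Between the libraries labelled knockdown and ELS GFP, Dot1l had a log2 difference of 0.28 (SE 0.27, edgeR quasi-likelihood test, Benjamini-Hochberg adjusted p = 0.985), which is against the direction of the label. For the overexpression libraries against Standard GFP it was 0.33 (SE 0.27, adjusted p = 0.741 by the same test). Directions in the knockdown group are therefore given as those of the libraries labelled knockdown.

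Bdnf (ENSMUSG00000048482) encodes brain-derived neurotrophic factor and lies at chr2:109674700-109727043 of mm10. Its level ran from 1.28 to 14 CPM in Standard GFP (median 4.48), from 1.46 to 9.74 CPM in ELS GFP (median 5.7), from 2.63 to 13.6 CPM in Standard Dot1l overexpression (median 5.77) and from 0 to 11.5 CPM in the libraries labelled knockdown (median 5.81). The 4 ranges overlapped almost wholly. These levels rest on 1 to 64 counts a library in Standard GFP and on 0 to 93 in the libraries labelled knockdown. Replicate 6 of the latter had 0 counts, which allows a level of up to 0.702 CPM (3 counts, counting error only).

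Ntf3 (ENSMUSG00000049107), at chr6:126101412-126166772, encodes neurotrophin-3 and was near the limit of detection. Measured levels ran from 0 to 1.9 CPM in Standard GFP (median 1.45), from 0.773 to 3.31 CPM in ELS GFP (median 1.72), from 1.1 to 6.91 CPM in Standard Dot1l overexpression (median 1.74) and from 0 to 5.84 CPM in the libraries labelled knockdown (median 0.988). It had 0 counts in Standard GFP replicates 1 and 4, where depth allows up to 3 and 6.21 CPM, above every level measured in that group. It also had 0 counts in ELS Dot1l knockdown replicates 3 and 6, which allow up to 0.346 and 0.702 CPM. The levels measured in the 8 ELS GFP libraries were all above these bounds. They carry counting error as well, with 8 counts in ELS GFP replicate 5 (0.773 CPM) and 2 in replicate 2 (1.29 CPM). Replicate 2 of the libraries labelled knockdown held 50 counts, 5.84 CPM.

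The promoters of these ligands are of interest because neither gene lay near an H3K79me2 peak in either list. The nearest peak to any part of the Bdnf gene was 164 kb away and the nearest to Ntf3 was 367 kb away, in both lists. RefSeq (GRCm38.p6) windows of 250 bases before an annotated start were at hand for 5 of the 8 members (Bdnf, with 7 starts, Ntf3, with 2, Ntrk2, Nrg3 and Erbb4). The stretches below are those before the first Bdnf start, before a later Bdnf start within the gene, and before the outer starts of Ntf3, Ntrk2 and Nrg3, without bases that a longer RefSeq gene model covers. Capitals mark matches, on either strand, to 6 motifs: the cyclic AMP response element TGACGTCA, its variant TCACGTCA, the E-box CACGTG, the Sp1 site GGGCGG, the EGR site GCGTGGGCG and TATAAA. The sequences run 5′ to 3′ in the direction of transcription.
Bdnf first start, + strand, chr2:109674450-109674699: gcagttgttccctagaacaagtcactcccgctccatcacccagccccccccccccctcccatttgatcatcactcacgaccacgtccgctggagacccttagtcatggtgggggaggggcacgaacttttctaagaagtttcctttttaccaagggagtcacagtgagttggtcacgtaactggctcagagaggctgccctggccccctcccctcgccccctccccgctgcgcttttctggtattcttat
Bdnf later start, + strand, chr2:109692186-109692435: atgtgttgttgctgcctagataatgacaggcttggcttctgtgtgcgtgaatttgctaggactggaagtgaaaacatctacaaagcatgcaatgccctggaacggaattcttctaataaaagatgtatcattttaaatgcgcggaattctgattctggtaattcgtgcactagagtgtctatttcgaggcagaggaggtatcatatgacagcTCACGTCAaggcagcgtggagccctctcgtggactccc
Ntf3 outer start, - strand, chr6:126166773-126166994: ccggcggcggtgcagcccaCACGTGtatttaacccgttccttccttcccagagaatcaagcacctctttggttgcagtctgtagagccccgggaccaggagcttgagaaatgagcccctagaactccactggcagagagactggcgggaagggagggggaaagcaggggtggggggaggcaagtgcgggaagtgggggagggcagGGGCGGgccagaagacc
Ntrk2 outer start, + strand, chr13:58806319-58806471: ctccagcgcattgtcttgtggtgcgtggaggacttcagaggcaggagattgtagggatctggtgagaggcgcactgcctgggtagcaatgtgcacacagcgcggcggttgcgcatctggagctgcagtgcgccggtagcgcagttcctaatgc
Nrg3 outer start, - strand, chr14:39473236-39473338: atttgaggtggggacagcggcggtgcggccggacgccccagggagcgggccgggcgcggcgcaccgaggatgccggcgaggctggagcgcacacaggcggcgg

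The later Bdnf window, 1 of 7 and shown for its match, held TCACGTCA 38 bases before its start, a match found in 0.35% of 32851 RefSeq promoter windows of the same length. This element is known from the activity-dependent promoter of Bdnf, where it binds CREB-family factors. The Ntf3 window held an E-box (6.02% of all windows) and an Sp1 site (32.7%). Of the 6 other Bdnf windows, 2 held Sp1 sites alone and 4 held no match. None was found in the first Bdnf window or in those of Ntrk2 and Nrg3, which says only that these letters are not there. The full 250-base windows of Nrg3 and Ntrk2 had a GC content of 72.4% and 62.8% against a median of 52.4% over all windows, and 58% and 45.6% at the first and the later Bdnf start. From the full window of Ntrk2 the nearest peak was 4.17 kb away among Standard peaks and 1.95 kb among ELS peaks, and from that of Nrg3 it was 0.68 kb and 12.2 kb. From the 7 Bdnf windows it was at least 168 kb.

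Ntrk2 (ENSMUSG00000055254), at chr13:58806472-59133970, encodes TrkB in a full-length form and in truncated forms that astrocytes are known to make. Ntrk2 levels ran from 310 to 731 CPM in Standard GFP (median 395), from 265 to 545 CPM in ELS GFP (median 339), from 260 to 776 CPM in Standard Dot1l overexpression (median 313) and from 257 to 442 CPM in the libraries labelled knockdown (median 306). In Standard GFP the level was high in replicates 1, 5 and 6 (653, 731 and 618 CPM), above all 8 ELS GFP libraries, while the other 5 lay between 310 and 395 CPM. Replicates 1 and 5 are among the libraries under 1 M counts, and replicate 6 had a TMM factor of 0.57. Per 1 M total counts over the tested genes, without TMM, replicate 6 was at 350, below ELS GFP replicate 7 at 454, and the high libraries were replicates 1, 4 and 5 (669, 612 and 767), all under 1 M counts.

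Ntrk3 (ENSMUSG00000059146), at chr7:78179986-78581034, encodes TrkC. Ntrk3 levels ran from 203 to 358 CPM in Standard GFP (median 273), from 153 to 274 CPM in ELS GFP (median 219), from 158 to 403 CPM in Standard Dot1l overexpression (median 218) and from 131 to 368 CPM in the libraries labelled knockdown (median 221). The 3 other medians were all below that of Standard GFP, and every range overlapped it.

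Sort1 (ENSMUSG00000068747), at chr3:108283974-108361519, encodes sortilin, which binds pro-neurotrophins and routes them inside the cell. Sort1 levels ran from 84.2 to 284 CPM in Standard GFP (median 125), from 66.5 to 130 CPM in ELS GFP (median 110), from 91.4 to 185 CPM in Standard Dot1l overexpression (median 109) and from 60.2 to 139 CPM in the libraries labelled knockdown (median 115). The spread was widest in Standard GFP, where replicates 1, 5 and 6 (206, 284 and 277 CPM) were high, as for Ntrk2, and the other 5 lay between 84.2 and 125 CPM. Those 5 fell inside the range of ELS GFP. Per 1 M total counts replicates 1 and 5 were at 211 and 297, and replicate 6 was at 157, beside 154 in replicate 4.

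Nrg1 (ENSMUSG00000062991), at chr8:31807452-32891609, encodes a neuregulin known for its many isoforms. Nrg1 levels ran from 548 to 1280 CPM in Standard GFP (median 815), from 475 to 1410 CPM in ELS GFP (median 780), from 326 to 1100 CPM in Standard Dot1l overexpression (median 680) and from 397 to 1080 CPM in the libraries labelled knockdown (median 734). The groups overlapped over nearly their whole ranges.

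Nrg3 (ENSMUSG00000041014), at chr14:38365102-39473235, encodes a neuregulin that binds ErbB4. Nrg3 levels ran from 361 to 1380 CPM in Standard GFP (median 678), from 237 to 1470 CPM in ELS GFP (median 930), from 313 to 983 CPM in Standard Dot1l overexpression (median 716) and from 301 to 1500 CPM in the libraries labelled knockdown (median 709). Its coefficient of variation within a group was 40.2% to 55.3%, against 13% to 32.4% for Erbb4.

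Erbb4 (ENSMUSG00000062209), at chr1:68031884-69108576, encodes the receptor tyrosine kinase of both neuregulins. Erbb4 levels ran from 273 to 374 CPM in Standard GFP (median 291), from 229 to 369 CPM in ELS GFP (median 279), from 162 to 477 CPM in Standard Dot1l overexpression (median 267) and from 209 to 363 CPM in the libraries labelled knockdown (median 298). It had the smallest coefficient of variation of the 8 members in Standard GFP and in ELS GFP (13% and 17%).

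**Figure D1:**
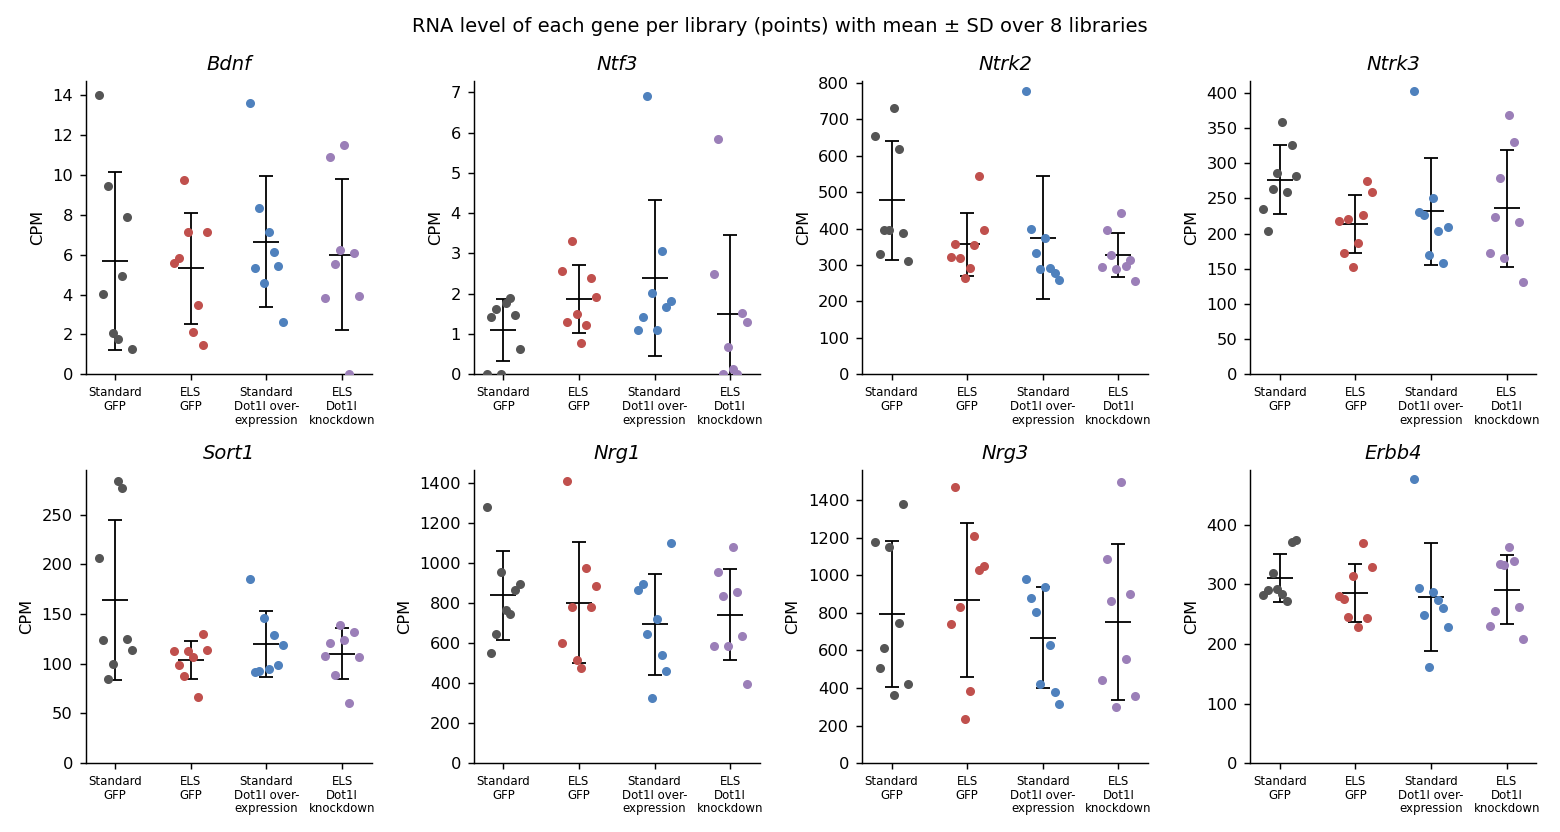
RNA level of each member in CPM (linear axis from 0) in every library of the 4 groups, with the mean and SD over 8 libraries as a bar. The 4 groups overlap in every panel, and 3 Standard GFP libraries stand above the rest of their group for Ntrk2 and Sort1 on this scale, 1 of them (replicate 6) with a TMM factor of 0.57.

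The ELS comparison asks how the rearing changed the transcripts in mice with the GFP control. No member passed the threshold (adjusted p of 0.05, edgeR), where 0% of all 14016 genes did, and DESeq2 and limma called 0 of the 8 as well. At an unadjusted p under 0.05 by edgeR, 1 member (Sort1, lower) was found, against 11.7% of all genes (4% higher and 7.73% lower). The fitted log2 fold changes of ELS GFP against Standard GFP were below 0 for 6 of the 8 members, against 51.2% of all genes.

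Sort1 averaged 104 ± 19.5 CPM in ELS GFP and 164 ± 80.3 CPM in Standard GFP (SD, n = 8 each). The fitted difference was -0.66 on the log2 scale (SE 0.23, 95% interval -1.13 to -0.19, edgeR unadjusted p = 0.00676, adjusted p = 0.189), and 7 of 8 ELS GFP libraries lay below the Standard GFP median. The log2 ratio of the medians was -0.18, beside the 3 high libraries in Standard GFP. Without the libraries under 1 M counts the fitted value was -0.46 (edgeR adjusted p = 0.532), and without Standard GFP replicate 6 it was -0.48 (adjusted p = 0.542).

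Ntrk2 averaged 357 ± 86.4 CPM in ELS GFP against 477 ± 163 CPM in Standard GFP (SD, n = 8 each). The fitted difference was -0.42 on the log2 scale (SE 0.21, edgeR adjusted p = 0.441). Without the libraries under 1 M counts this value was -0.18 (adjusted p = 0.91 by edgeR). Ntrk3 averaged 214 ± 41.4 against 277 ± 49 CPM, a log2 fold change of -0.37 (SE 0.2, edgeR adjusted p = 0.481), with 7 of 8 ELS GFP libraries below the Standard GFP median. It stayed at -0.31 without the shallow libraries (edgeR adjusted p = 0.743).

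The other 5 members lay closer to 0 or had wide errors. Nrg1 differed by -0.06 on the log2 scale (SE 0.23, 95% interval -0.54 to 0.41), Erbb4 by -0.12 (SE 0.17, -0.47 to 0.23) and Nrg3 by 0.13 (SE 0.34, -0.57 to 0.83). For the ligands with few counts the intervals were wider still, at -1.2 to 0.92 around -0.14 for Bdnf and -0.82 to 2.08 around 0.63 for Ntf3. Changes of Bdnf or Ntf3 within these intervals were not detectable in these libraries.

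Markers of other cells moved beside these values. In ELS GFP against Standard GFP, 13 of 14 tested medium spiny neuron markers (of 15 listed) were below 0, at a median log2 fold change of -0.82, and their summed level ran from 653 to 3170 CPM in Standard GFP and from 695 to 2310 CPM in ELS GFP. All 8 tested astrocyte markers (of 10 listed) were below 0, at a median of -0.66, with a summed level of 1710 to 3180 CPM in Standard GFP and 1100 to 2590 CPM in ELS GFP. All 12 oligodendrocyte markers were below 0, at a median of -0.51, with sums of 582 to 1080 and 416 to 1020 CPM. Microglia markers were below 0 for 8 of 9 (median -0.65), with sums of 428 to 2850 CPM in Standard GFP and 613 to 1260 CPM in ELS GFP, and oligodendrocyte precursor markers for 4 of 6 (median -0.63). Interneuron, endothelial and cortical neuron markers had medians above 0 (0.3, 0.25 and 0.16), with 4 of 9, 2 of 8 and 3 of 7 below 0. The median of all tested genes was -0.01. The part of these markers in the values of Sort1, Ntrk2 and Ntrk3 was not tested, and in whole tissue fewer cells of a type and less RNA per cell cannot be told apart.

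The overexpression comparison sets standard-reared mice labelled for Dot1l overexpression against Standard GFP, so it shares the Standard GFP libraries with the ELS comparison. No member passed in edgeR, where 0% of all genes did, nor in DESeq2 or limma, and 0 members had an unadjusted p under 0.05 by edgeR, against 10.9% of all genes (4.59% higher and 6.28% lower). Sort1 averaged 120 ± 33.1 against 164 ± 80.3 CPM (SD, n = 8), and the fitted log2 difference was -0.45 (SE 0.23, edgeR adjusted p = 0.473), or -0.27 without Standard GFP replicate 6. The values for Ntrk2, Nrg1, Ntrk3, Nrg3 and Erbb4 were -0.35, -0.27, -0.25, -0.25 and -0.16 (SE 0.17 to 0.34). Bdnf was at 0.18 (SE 0.52). With 1 library left out at a time, the fitted value ran from -0.57 to -0.23 for Ntrk2, from -0.41 to -0.19 for Ntrk3 and from -0.31 to -0.08 for Erbb4. Likewise it ran from -0.4 to -0.15 for Nrg1, from -0.35 to -0.08 for Nrg3, from -0.56 to -0.27 for Sort1 and from -0.04 to 0.47 for Bdnf. The low ends of Ntrk2, Ntrk3, Erbb4, Sort1 and Bdnf came without Standard Dot1l overexpression replicate 1, whose TMM factor was the lowest. Without the libraries under 1 M counts Ntrk2 was at -0.1. Ntf3 was at 0.99 (SE 0.71, edgeR adjusted p = 0.682), and at 0.53 without Standard Dot1l overexpression replicate 3, which held 36.2% of that group's summed level. Medium spiny neuron markers were below 0 for 13 of 14 (median -0.4), astrocyte markers for 6 of 8 (median -0.12) and oligodendrocyte markers for 12 of 12 (median -0.42). Oligodendrocyte precursor markers were below 0 for 5 of 6 (median -0.59), microglia markers for 5 of 9 (median -0.21) and endothelial markers for 5 of 8 (median -0.05). Cortical neuron markers were below 0 for 4 of 7 (median -0.07) and interneuron markers for 4 of 9 (median 0.24). The part of these lists was not tested.

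The knockdown comparison sets the libraries labelled knockdown against ELS GFP. No member passed in edgeR, where 0% of all genes did, nor in DESeq2 or limma, and 0 members had an unadjusted p under 0.05 by edgeR, against 6.18% of all genes (2.23% higher and 3.95% lower). DESeq2 called 0.0143% of all genes. The 8 log2 fold changes lay between -0.3 and 0.18 (edgeR adjusted p = 0.998 each). Sort1 was at 0.08 (SE 0.23, 95% interval -0.38 to 0.55), Ntrk2 at -0.12 (SE 0.21, -0.56 to 0.31) and Ntrk3 at 0.14 (SE 0.2, -0.27 to 0.55). Nrg1 was at -0.11, Nrg3 at -0.21 and Erbb4 at 0.03 (SE 0.23, 0.34 and 0.17). Bdnf was at 0.18 (SE 0.5). Ntf3 was at -0.3 (SE 0.66), and at -1.17 without ELS Dot1l knockdown replicate 2, which held 48.8% of that group's summed level. Microglia markers were above 0 for all 9 tested (of 10 listed) at a median of 0.46, with a summed level of 430 to 1760 CPM in the libraries labelled knockdown and 613 to 1260 CPM in ELS GFP. Interneuron markers were below 0 for 7 of 9 (median -0.24), endothelial markers for 7 of 8 (median -0.22) and oligodendrocyte precursor markers for 3 of 6 (median -0.23). Medium spiny neuron markers were below 0 for 5 of 14 (median 0.05) and astrocyte markers for 3 of 8 (median 0.12). Oligodendrocyte markers were below 0 for 4 of 12 (median 0.04) and cortical neuron markers for 4 of 7 (median -0.02). The part of these lists was not tested.

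**Figure D2:**
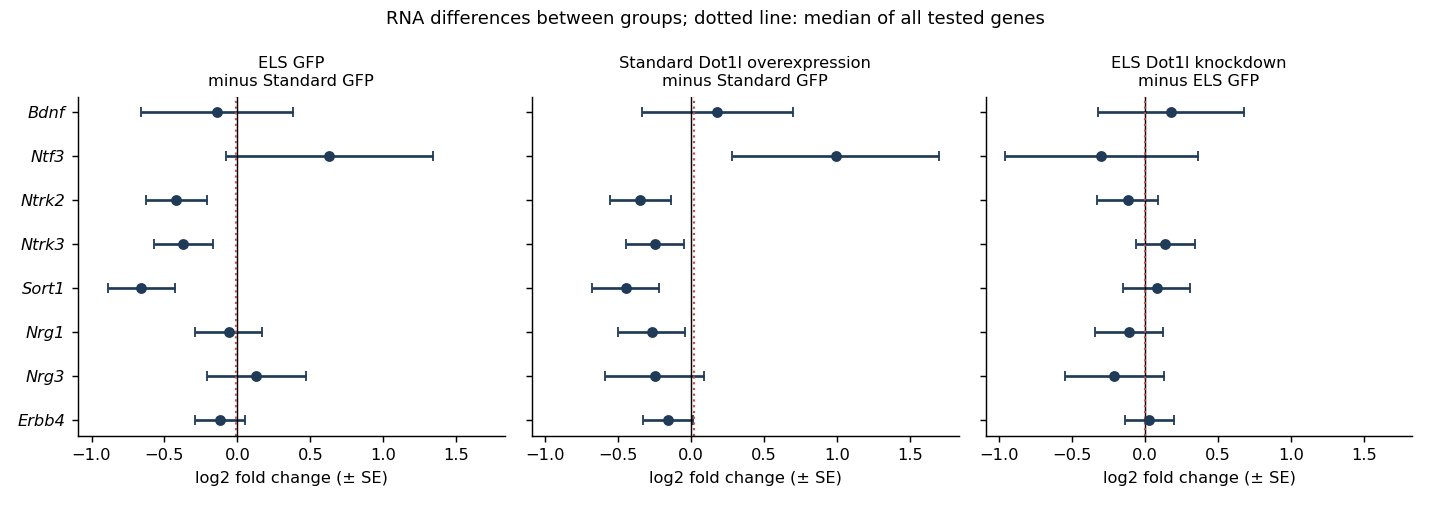
Fitted log2 fold change of each member with its SE in the 3 main comparisons, with the median of all tested genes as a dotted line. Sort1 lies farthest below 0 in the ELS comparison (-0.66), and in the knockdown comparison all 8 members lie between -0.3 and 0.18.

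Against Standard GFP, the libraries labelled knockdown had 2 members at an unadjusted p under 0.05 by edgeR, both lower, where 10.8% of all genes (7.7% lower) had one, and 0% of genes and 0 members passed after adjustment. These were Ntrk2, with a log2 fold change of -0.54 (SE 0.21, edgeR adjusted p = 0.307), and Sort1, with -0.57 (SE 0.23, edgeR adjusted p = 0.321). In the same comparison 14 of 14 medium spiny neuron markers (median -0.78), 8 of 8 astrocyte markers (median -0.52) and 12 of 12 oligodendrocyte markers (median -0.38) were below 0. So were 6 of 6 oligodendrocyte precursor markers (median -0.48), 5 of 9 microglia markers (median -0.06) and 5 of 8 endothelial markers (median -0.11). Cortical neuron markers were below 0 for 4 of 7 (median -0.19) and interneuron markers for 4 of 9 (median 0.25). The part of these lists was not tested. The overexpression libraries against ELS GFP had no member at that level, where 6.68% of all genes had one, and the largest difference was that of Nrg3 at -0.38 (SE 0.34). Over the 5 pairs of groups tested, no neighbours in the order of the group means of any member differed past the threshold.

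The pathway around the members was described with 103 further genes in 7 roles, of which 95 passed the filter on low counts. None passed the threshold in any of the 3 main comparisons by edgeR, where 0% of all genes did. In ELS GFP against Standard GFP, 63 of 95 were below 0 at a median log2 fold change of -0.19, beside 51.2% of all tested genes and their median of -0.01. At an unadjusted p under 0.05 by edgeR, 1 was higher and 10 lower, where 11.7% of all genes were found (4% higher and 7.73% lower). For overexpression 59 of 95 were below 0 (median -0.12, beside 48.5% of all genes). At the same unadjusted level 1 was higher and 6 lower, beside 10.9% of all genes (4.59% higher and 6.28% lower). For the libraries labelled knockdown 43 of 95 were below 0 (median 0.02, beside 49.8%). There 4 were higher and 1 lower at that level, beside 6.18% of all genes (2.23% higher and 3.95% lower). DESeq2 called 2 pathway genes in the ELS comparison, where it called 0.702% of all genes. They were Dusp5, a phosphatase of ERK, and Mapk7, the kinase ERK5.

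Among the other receptors, all 7 that passed the filter were below 0 in the ELS comparison (median -0.42) and in the overexpression comparison (median -0.31), which share Standard GFP, and 3 of 7 in the knockdown comparison. One of them, Sorcs2, a relative of sortilin and a co-receptor for pro-neurotrophins, was singled out after its values were seen. It averaged 88.4 ± 11.5 CPM in ELS GFP against 131 ± 52.8 CPM in Standard GFP (SD, n = 8), and its fitted log2 difference was -0.57 (SE 0.23, edgeR adjusted p = 0.3). Ngfr, the shared low-affinity neurotrophin receptor, averaged 0.716 to 1.45 CPM over the 4 groups and did not pass the filter. The other ligands held 3 of 6 below 0 in the ELS comparison, and the genes that cleave pro-ligands 3 of 8. Adaptors had 13 of 21 below 0, kinases of the cascade 19 of 25, feedback regulators 10 of 16 and activity-dependent target genes 8 of 12.

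Since no pathway gene passed, the 4 with the smallest p in each main comparison are described. In the ELS comparison Dusp5 had a log2 fold change of 2.62 (SE 0.63, edgeR adjusted p = 0.12), or 2.03 as the log2 ratio of medians. All 8 ELS GFP libraries lay above the Standard GFP median, and replicate 2 held 63.9% of the summed ELS GFP level. Mapk7 was at -1.73 (SE 0.43, edgeR adjusted p = 0.12), with all 8 ELS GFP libraries below the Standard GFP median. Its log2 ratio of medians was -1.02, and Standard GFP replicate 5, a library under 1 M counts, held 45.8% of that group's level. Hbegf, a ligand of EGF and ErbB4 receptors, was at -2.3, but Standard GFP replicate 6 held 84.8% of that group's level and the log2 ratio of medians was 0.39. Vgf, a neurotrophin-inducible secreted peptide gene, was at -0.92 (SE 0.35), with 28.3 ± 10.1 against 53.3 ± 39.3 CPM (SD, n = 8).

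For overexpression the 4 were Hbegf (-2.4, with the same Standard GFP library), Akt1, Bace1 and Homer1. Akt1, a kinase downstream of Trk and ErbB receptors, averaged 46 ± 31.4 against 21.9 ± 7.12 CPM (SD, n = 8), and its fitted log2 difference was 1.04 (SE 0.3, edgeR adjusted p = 0.154). Its log2 ratio of medians was 0.57, and overexpression replicate 1, with a TMM factor of 0.53, held 31.8% of that group's level. Bace1, the protease that cleaves neuregulin-1, was at -0.83 (SE 0.3), or -0.35 between the medians, with 42% of the summed Standard GFP values in replicate 6, and Homer1, a synaptic scaffold, at -0.72 (SE 0.29). For the libraries labelled knockdown the 4 were Dusp6 (2.08, SE 0.61, with 75.5% of the level in replicate 7, a library under 1 M counts), Rps6ka3 (0.85, SE 0.31, 42.8% in the same library), Dusp5 (-1.53, SE 0.58, or -0.55 as the log2 ratio of medians, with 63.9% of the ELS GFP level in replicate 2) and Shc1, a Trk adaptor (1.15, SE 0.45).

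**Figure D3:**
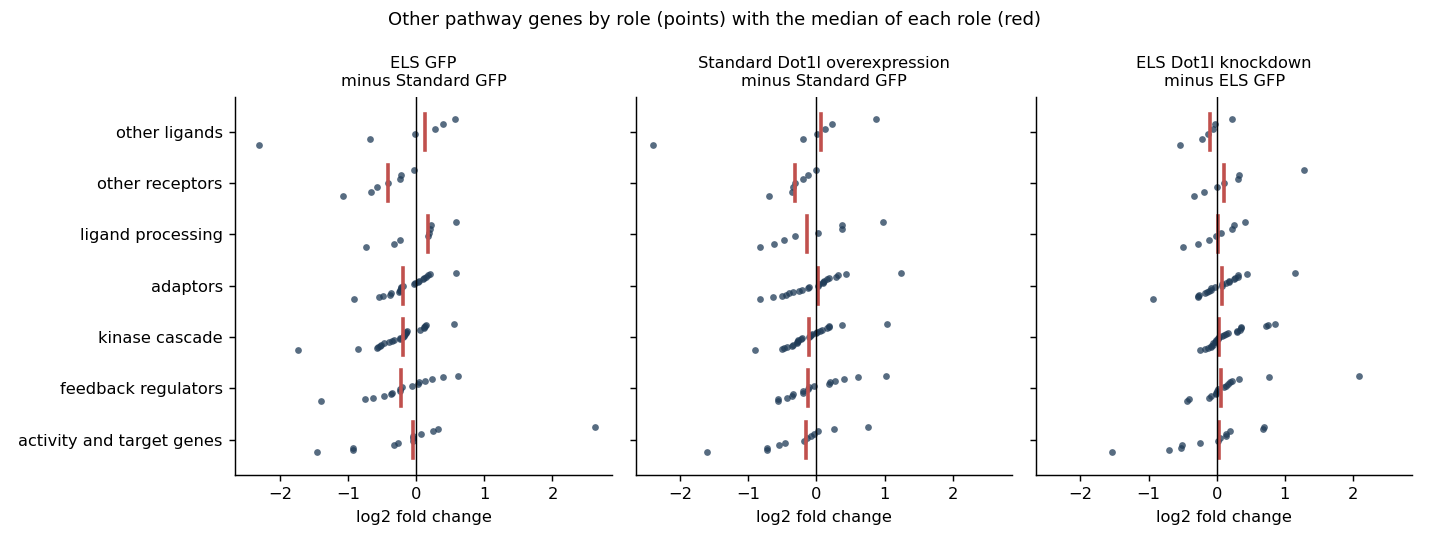
Log2 fold changes of the 95 tested pathway genes by role in the 3 main comparisons (points), with the median of each role as a red line. The other receptors lie at or below 0 in the first 2 panels (medians -0.42 and -0.31), and medians in the third lie between -0.1 and 0.11.

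The genes whose level was most like that of each member were found by Pearson correlation of log2 CPM over the 32 libraries, after the group means were subtracted. They are a description, and the libraries share depth and scaling. Nrg3 was closest to Csmd1 and Agbl4 (r = 0.95 and 0.94), and Nrg1 to Grm7 and Anks1b (0.92 and 0.9). These 4 genes span 922 to 1640 kb, where the median of tested genes was 31.2 kb and Nrg1 and Nrg3 span 1080 and 1110 kb. Ntrk2 was closest to Map1b and Sez6l (0.85 and 0.84), and Ntrk3 to Nlgn1 and Fstl4 (0.84 and 0.83). Sort1 was closest to Grin1 and Inpp5k (0.78 and 0.77), Bdnf to Kcnc2 and Asns (0.77 each), Ntf3 to Gm26721 and Drc1 (0.76 and 0.75), and Erbb4 to Dlgap2 and Zfp804a (0.74 each). Among the members the closest pairs were Nrg1 with Nrg3 (0.64), Ntrk2 with Ntrk3 (0.63) and Ntrk3 with Erbb4 (0.62), while Bdnf with Ntrk2, ligand and receptor, gave 0.25 and Ntf3 with Ntrk3 gave -0.26.

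H3K79me2 was described from 1 peak list per rearing group, so no difference between the lists has a replicate check or a test. Folds are the authors' enrichment values. The Standard list held 322 peaks of the members among 117819 and the ELS list 227 among 106374. These belonged to 6 of the 8 members, and Bdnf and Ntf3 had none. Of all RefSeq protein-coding genes, the Standard list named 38.1% and the ELS list 35.1%. All 6 were covered over less length in the ELS list, beside 89.7% of the genes named in either list, so the direction alone is near the background. Of the genes with at least 5 kb covered in either list, 97.6% had less in the ELS list, as did all 4 members of that size.

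Ntrk2 carried 123 peaks over 88.5 kb in the Standard list, and 76 over 52.6 kb in the ELS list, with mean folds of 1.93 and 1.89. That is 27% and 16.1% of its span, and the ELS length was 0.595 times the Standard length. Over the 10879 genes with peaks in both lists the median of this ratio was 0.732 (quartiles 0.563 and 0.855). Both lists had a block of high peaks early in the gene. In the Standard list the peak of highest fold was also the widest, at chr13:58817678-58825549 (7.87 kb, fold 3). The widest ELS peak, at chr13:58817698-58825609 (7.91 kb, fold 2.6), has nearly the same borders. The lists name 2 transcript models of Ntrk2, and the shorter one spans 130 kb, or 39.8% of the 326 kb of the longer. Of the covered length, 68.1% (Standard) and 80.7% (ELS) lay before the end of the shorter model.

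Ntrk3 carried 114 peaks over 115 kb in the Standard list, and 94 over 84.5 kb in the ELS list, with mean folds of 2.01 and 1.95. The ratio of lengths was 0.738, close to the median of all genes. By covered length it ranked 125 of 12297 genes with standard rearing and 124 of 11255 with ELS, where Ntrk2 ranked 213 and 333. These ranks are not scaled for gene span. Peaks covered 28.6% and 21.1% of the span of Ntrk3, and 25.6% and 21.5% of that of Sort1, which ranked 1862 and 1748. The widest Standard peak of Ntrk3, at chr7:78552307-78562642, was 10.3 kb wide with a fold of 3.29. Its widest ELS peak, at chr7:78554761-78562542, was 7.78 kb wide with a fold of 2.64. The first 25% of the gene held 64.9% of its covered length under standard rearing and 71.6% under ELS, and the last 25% held 0.548% and 0%.

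Sort1 carried 20 peaks over 20.1 kb in the Standard list, and 19 over 16.7 kb in the ELS list (ratio 0.831), with mean folds of 2.18 and 2.03. It was the only member with a peak within 1 kb of its RefSeq gene start in both lists. The strongest was at chr3:108284142-108284634 in the Standard list (fold 2.71) and chr3:108284197-108284613 in the ELS list (fold 2.8, the highest of the gene there). The widest Standard peak was at chr3:108297069-108300276 (3.21 kb, fold 2.81). Its covered length lay wholly or almost wholly in the first 50% of the gene, with 1% beyond it in the Standard list and 0% in the other.

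Nrg1 carried 53 short peaks over 18.1 kb in the Standard list, and 33 over 9.93 kb in the ELS list (ratio 0.55), at mean folds of 1.8 and 1.74. None was wider than 911 bp, and the lists placed all of them in the gene body and none in a promoter. The peaks fell near both ends of the gene, with 62.8% and 51.4% of the length in the first 25% and 24.5% and 29.9% in the last 25%, where many short transcript models start. The Standard peak of highest fold was at chr8:32859266-32859623 (fold 2.16). In the ELS list the highest fold (1.9) was shared by peaks near both ends, at 24.1, 53.2 and 1031 kb from the gene start. The widest of these was at chr8:31860121-31860430, the one far from the start.

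Nrg3 and Erbb4, which span 1110 and 1080 kb, carried few peaks. Nrg3 had 4 in each list, over 1.34 and 1.22 kb, of which 1 overlapped between the lists. That was the Standard peak at chr14:39460175-39460760 (fold 1.96). A Standard peak at chr14:39472124-39472409 (fold 1.77), 0.68 kb from the full 250-base promoter window, overlapped no ELS peak. Erbb4 had 8 peaks over 2.71 kb in the Standard list, and 1 over 0.185 kb in the ELS list, a ratio of 0.0682. Of the 10879 genes with peaks in both lists, 0.0735% had a lower ratio. That share leaves out those of the 12297 genes of the Standard list that had no ELS peak and so lost all covered length. The one ELS peak of Erbb4, at chr1:69082886-69083071 (fold 1.74), lay inside its Standard peak of highest fold, chr1:69082563-69083107 (2.16). The authors' q-value of that peak was 0.00142, and at a q-value of 0.001 or less Erbb4 kept 2 Standard peaks and 0 ELS peaks.

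**Figure D4:**
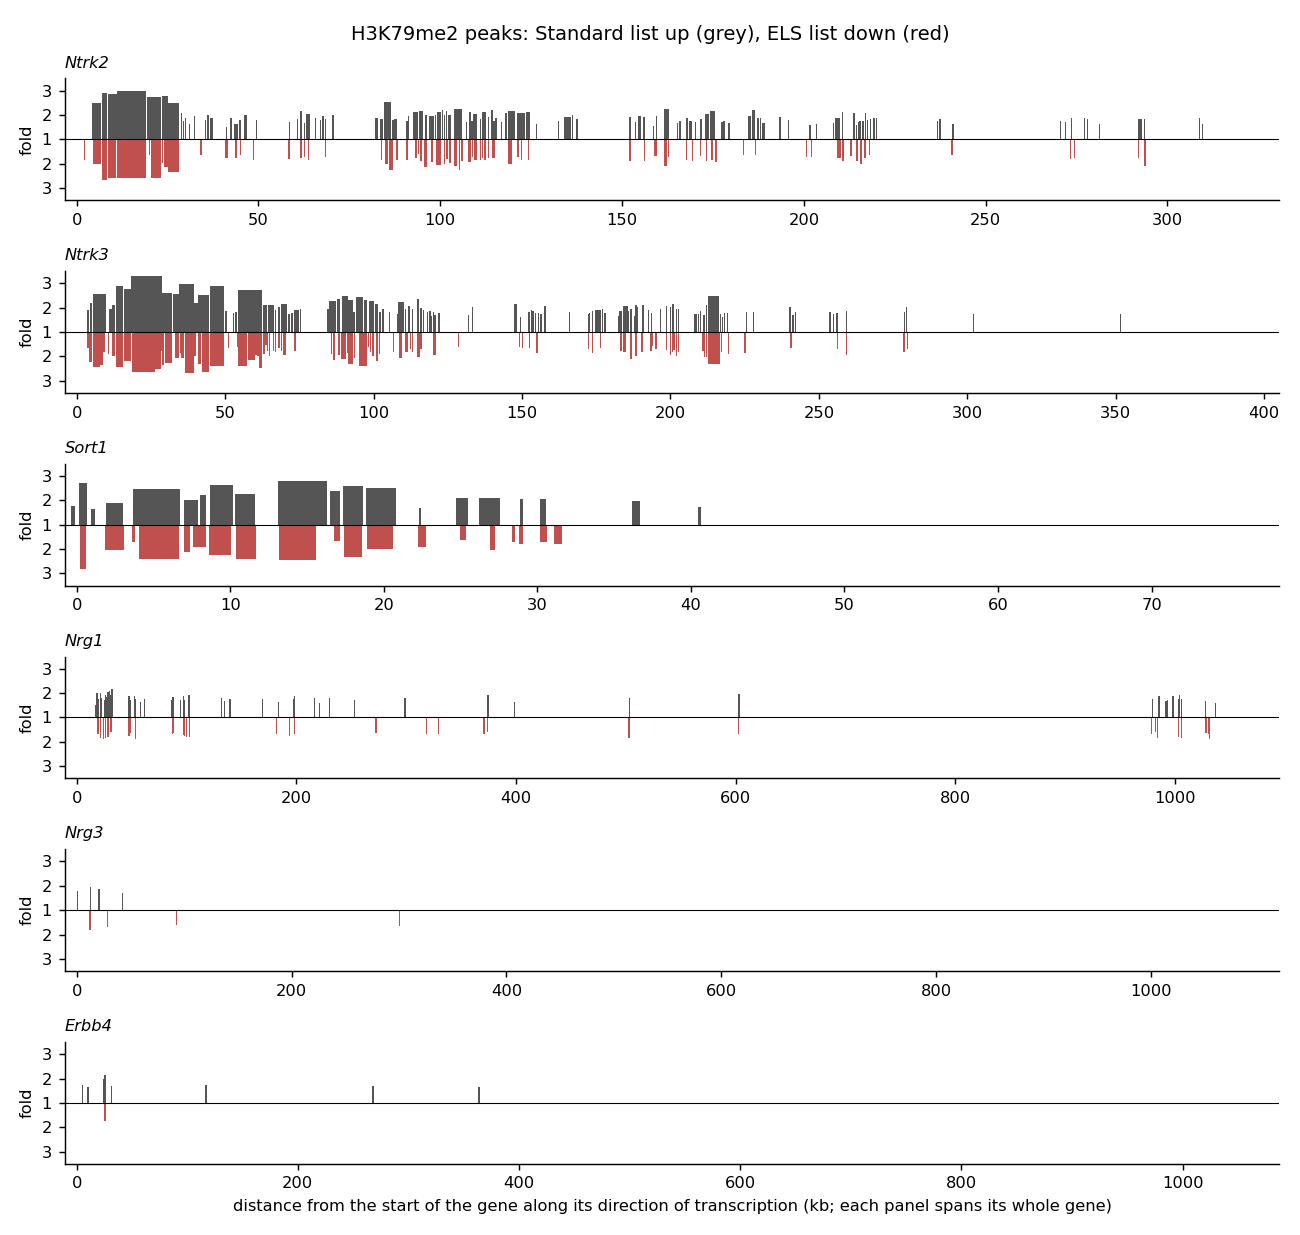
H3K79me2 peaks along the 6 members with peaks, by distance from the gene start in kb, with the authors' fold as bar height (from 1), Standard peaks upward and ELS peaks downward. The high, wide peaks lie in the first part of Ntrk2, Ntrk3 and Sort1, and Erbb4 holds 8 Standard peaks and 1 ELS peak.

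Of the members' Standard peaks 50.6% (exact 95% binomial interval 45% to 56.2%) overlapped an ELS peak by at least 1 bp, where 62.6% of all Standard peaks did. Of their ELS peaks 83.3% (77.8% to 87.9%) overlapped a Standard peak, where 90.8% of all did. The intervals cover counting error only, and neighbouring peaks of a gene share it. By gene the share of Standard peaks that overlapped ran from 80% for Sort1, through 57% for Ntrk3, 50.4% for Ntrk2 and 34% for Nrg1, to 25% for Nrg3 and 12.5% for Erbb4. Of the 103 pathway genes, 74 had a Standard peak and 70 an ELS peak, where 38.1% and 35.1% of all RefSeq protein-coding genes had one. In the ELS list 73 were covered over less length and 1 over more. Less length was also found for 89.7% of the genes named in either list, and for 97.6% of those with at least 5 kb covered. The direction is thus near the background here too.

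**Figure D5:**
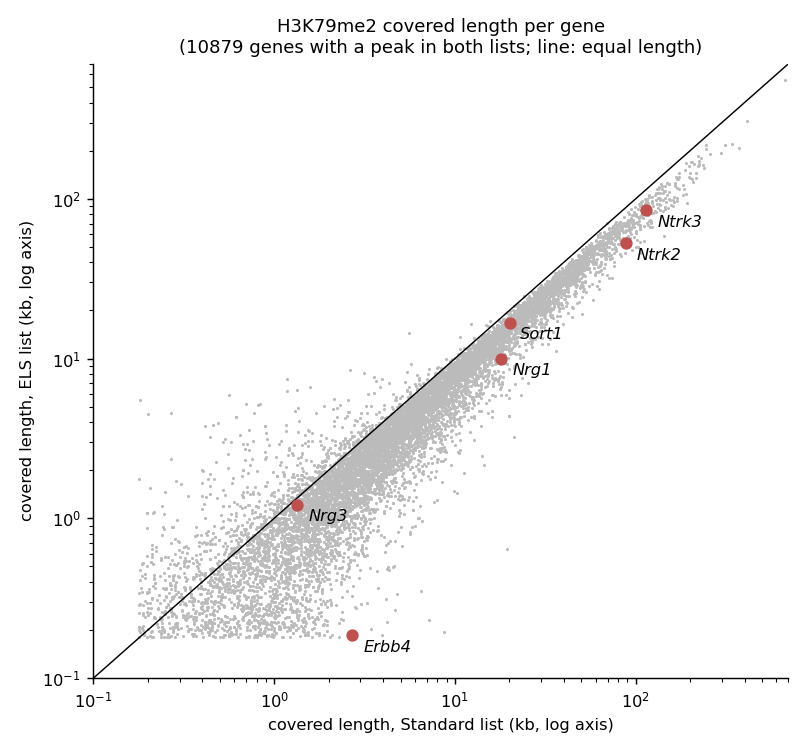
H3K79me2 covered length per gene in kb in the Standard list, and the ELS list (both axes log) for the 10879 genes with peaks in both, with the 6 members in red and the line of equal length. All 6 lie below the line, as most genes do, and Erbb4 lies farthest from it at 2.71 against 0.185 kb.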

How the data were processed

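The authors deposited raw counts per Ensembl gene (whole numbers, not normalized, from the values) and 1 annotated H3K79me2 peak list per rearing group with a fold (a ratio) and a q-value per peak, per the file headers. The submitters' processing notes name FastQC, HISAT2, featureCounts and DESeq2 and build mm10, without roles. The sources used here give neither the use of strand, the peak caller nor the pooling of ChIP libraries. ChIP labels cover 9 Standard and 9 ELS libraries, with 9 and 10 inputs, which were not analysed singly. Groups came from the labels. All 32 count columns matched an RNA title, and 52403 gene IDs a symbol.

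Counts were tested with edgeR 4.0.16 (TMM, filterByExpr, robust quasi-likelihood test) in 1 fit of 32 libraries with 28 residual degrees of freedom and a common biological coefficient of variation of 0.566. Adjusted p-values are Benjamini-Hochberg values over 14016 genes, with a threshold of 0.05. The SE is the absolute log2 fold change over the square root of F. Alternatives were DESeq2 1.42.0, limma 3.58.1 (voom with quality weights), other scalings, filters and sets of libraries. Scaling by total counts was added after the data were seen. All 3 tools were checked on simulated counts. Library totals were 0.314 to 11.1 M counts, and Bdnf and Ntf3 had the fewest counts of the members.

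Peaks were compared with bedtools 2.31.1 (at least 1 bp). Coordinates are those of the lists, and a width is end minus start. Covered length is the sum of peak widths per named gene. Named besides the members were, per main comparison, pathway genes past the threshold or else the 4 with the smallest p, the 2 genes most like each member, Dot1l, and per member and list the peak of highest fold, the widest and the strongest within 1 kb of a start. Members and gene lists were chosen with earlier results of these data known.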

Additional observations from a re-analysis of the deposited data

Results flagged for a closer look

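Of 32 sets of 8 libraries (8 members in 4 groups), 6 held a library far from the other 7 by Dixon's criterion at 95%, which chance gives in about 1 of 20. Ntf3 was at 6.91 CPM in Standard Dot1l overexpression replicate 3 (49 counts), where the next library was at 3.06 CPM, and at 5.84 CPM in ELS Dot1l knockdown replicate 2 (50 counts), next to 2.5 CPM. Ntrk2 was at 545 CPM in ELS GFP replicate 7, next to 396 CPM. Standard Dot1l overexpression replicate 1 gave the other 3, with Ntrk2 at 776 CPM (next 398), Ntrk3 at 403 CPM (next 251) and Erbb4 at 477 CPM (next 294). That library had the lowest TMM factor, 0.53. Per 1 M total counts over the tested genes, its values were 411 for Ntrk2, 214 for Ntrk3 and 253 for Erbb4. On that scale 3 sets held such a library, of which 2 were among the 6 above.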

How the results depend on the processing

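No member passed the threshold in the 5 comparisons under any alternative run. Sort1 in the ELS comparison, the one member at an unadjusted p under 0.05 in the main comparisons, stayed below 0 throughout, from -0.7 to -0.27 over 9 alternatives and from -0.76 to -0.48 when 1 library was left out. The count of pathway genes in that comparison rose from 0 to 2 with DESeq2. Small differences changed sign. In the ELS comparison, Bdnf was at 0.29 and Nrg3 at -0.06 with limma, and Nrg1 at 0.12 without the libraries under 1 M counts. In the knockdown comparison, limma gave Bdnf -0.06, Ntrk3 -0.17 and Erbb4 -0.13, DESeq2 and scaling with relative log expression factors gave Erbb4 0, and scaling by total counts (which moved the median of all genes to 0.11) gave Ntrk2 0.01 and Nrg1 0. The cause was not tested. With 1 library left out, values in the ELS comparison ran from -0.33 to 0.13 for Bdnf, -0.23 to 0.06 for Nrg1 and -0.02 to 0.29 for Nrg3. In the overexpression comparison Bdnf ran from -0.04 to 0.47. In the knockdown comparison the ranges were -0.03 to 0.38 for Bdnf, -0.21 to 0.05 for Nrg1 and -0.03 to 0.09 for Erbb4. With the title number as a replicate block no member passed, Sort1 in the ELS comparison was at -0.6 (edgeR adjusted p = 0.701), and nothing in the labels says that a number marks a shared animal or batch. The mean correlation of deviations was 0.03 for equal and -0.01 for other numbers, and 14 of 32 libraries, not all, were closest to one of their own number. In the overexpression comparison edgeR called 19 genes, none of them members, without the libraries under 1 M counts. Without the filter on low counts the median of all genes moved to 0.18 there.

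The share of the members' Standard peaks that overlap an ELS peak, 50.6%, was 43.3% among peaks at or above the median fold of 1.94 and 29.8% when 50% of each peak had to overlap. The former also left Nrg1, Nrg3 and Erbb4 without an ELS peak. The same shares over all Standard peaks are not given here, so neither fall can be read as particular to the members.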

Other observations

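Genes that span at least 500 kb (224 tested genes, members left out) held from 4.53% to 10.4% of a library's counts, a measure chosen after the values of the members were seen. The highest shares were in libraries under 1 M counts: Standard GFP replicates 4 and 1 (10.4% and 8.79%) and ELS Dot1l knockdown replicate 7 (8.81%). Standard GFP replicate 5, also under 1 M, was at 6.53%. The part of depth was not tested. The genes most like Nrg1 and Nrg3 in these same libraries also span at least 500 kb. The p-values below therefore describe the relation and are not an independent test of it. Over the 32 libraries, with group means subtracted, the log2 level of Nrg1 went with this share (Pearson r = 0.58, permutation p = 0.00048, adjusted over 8 relations 0.0038; Spearman rho = 0.57, permutation p = 0.00074, adjusted 0.0059), and r was 0.58 without the 2 farthest libraries. For Nrg3 r was 0.48 (permutation p = 0.0053, adjusted 0.021), rho was 0.53 (permutation p = 0.0021, adjusted 0.0085), and r was 0.44 without the 2 farthest libraries. For Erbb4, which is of like span, r was 0.25 (permutation p = 0.17, adjusted 0.32) and rho was 0.3 (permutation p = 0.09, adjusted 0.15). For Bdnf, which spans 52.3 kb, r was 0.25 (permutation p = 0.17, adjusted 0.32) and rho was 0.38 (permutation p = 0.035, adjusted 0.092). For Sort1, which spans 77.5 kb, r was -0.15 (permutation p = 0.4, adjusted 0.4). For Ntf3, Ntrk2 and Ntrk3 r was -0.19, 0.16 and 0.23, and rho was -0.2, 0.3 and 0.28.

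Among the pathway genes, the longest H3K79me2 coverage lay over Nedd4l, a ubiquitin ligase (165 kb in the Standard list and 120 kb in the ELS list), and the neuregulin Nrg2 (90.1 and 71.2 kb).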
